A study of Homo sapiens with 7 samples.

Results

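The genes described here are 34 genes of the endoplasmic reticulum (ER) that fold secretory and membrane proteins, dispose of misfolded ones or carry the unfolded protein response. They were taken by name from a list, and all 34 were found among the 19978 genes of the count table, where Ensembl identifiers were matched to symbols. HEK-293, an established human embryonic kidney cell line, was cultured for 48 h in 1 of 3 media, and poly(A) RNA was sequenced from 7 samples. Control cells (2 samples) were kept at pH 7.4 with DMSO as vehicle, and acidosis cells (3 samples) at pH 6.6, in medium titrated with acid, also with DMSO. The remaining 2 samples were kept at pH 7.4 with 10 µM of SRPIN340, an inhibitor of SR protein kinases, in the same vehicle. The study designed these samples to compare prolonged mild acidosis with SR protein kinase inhibition. The methods call the samples biological repeats, and the labels do not say whether they came from separate cultures, so the spread between them may be partly technical.

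The ER lumen holds the chaperones, glycan-binding lectins and disulfide isomerases that fold proteins entering the secretory pathway. When unfolded proteins accumulate, the sensors IRE1α (gene ERN1), ATF6 and PERK (gene EIF2AK3) signal to the nucleus. IRE1α splices the mRNA of XBP1 into the form that encodes an active transcription factor, ATF6 is cut to release its own factor, and PERK phosphorylates eIF2α, which lowers general translation and favours that of ATF4. ATF6 and XBP1 act through promoter elements named ERSE and ERSE-II, and their known targets include chaperones and ER-associated degradation (ERAD) genes. Gene-level counts measure neither XBP1 splicing, ATF6 cleavage nor protein.

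Total counts ran from 13615816 in acidosis replicate 2 to 24110460 in control replicate 2. The 100 most abundant genes held between 15.15% and 15.37% of the counts in the 4 samples at pH 7.4 and between 24.06% and 24.81% in the acidosis samples, and the factors of edgeR's TMM scaling were between 1.172 and 1.21 at pH 7.4 and between 0.7823 and 0.8001 in acidosis. Levels are given as CPM, that is, counts divided by the TMM-scaled library total and brought to a common scale. The choice of scaling therefore moves every acidosis value: the median log2 fold change of the 14863 genes tested was −0.05 with TMM and −0.63 when libraries were scaled by total count only. All 11 marker genes expected in HEK-293 exceeded 1 CPM in every sample, with a sum between 1691 and 1774 CPM at pH 7.4 and between 3845 and 3865 CPM in acidosis, where VIM made up most of it. The 9 markers of other cell types summed to between 2.58 and 6.985 CPM, JCHAIN and INS were at 0 in every sample and only COL3A1 exceeded 1 CPM in all of them. In RNA from whole cultures, fewer cells of one kind and less RNA per cell cannot be told apart.

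Of the 11 ER genes whose promoter held the letters of an ERSE or ERSE-II, the promoters of the 6 with the largest rises in acidosis are printed. They are the 250 bases before a RefSeq transcript start (GRCh38.p14), read 5′ to 3′ along the gene's strand, in the order of the genes' log2 fold changes. Capitals mark the match, on either strand, to ERSE (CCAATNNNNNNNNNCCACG) or, in HERPUD1, to ERSE-II (ATTGGNCCACG).
HSPA5 (chr9:125241344-125241593, - strand): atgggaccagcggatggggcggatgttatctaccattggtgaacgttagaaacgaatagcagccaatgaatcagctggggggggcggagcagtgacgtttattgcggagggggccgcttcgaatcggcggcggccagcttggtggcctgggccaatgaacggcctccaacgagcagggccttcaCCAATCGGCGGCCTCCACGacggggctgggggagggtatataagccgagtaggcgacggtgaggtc
HERPUD1 (chr16:56931892-56932141, + strand): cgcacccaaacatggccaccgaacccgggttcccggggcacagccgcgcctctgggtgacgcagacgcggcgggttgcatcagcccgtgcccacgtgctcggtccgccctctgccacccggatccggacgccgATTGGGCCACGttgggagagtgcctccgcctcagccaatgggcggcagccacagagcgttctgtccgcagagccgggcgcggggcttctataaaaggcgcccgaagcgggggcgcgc
HSP90B1 (chr12:103930160-103930409, + strand): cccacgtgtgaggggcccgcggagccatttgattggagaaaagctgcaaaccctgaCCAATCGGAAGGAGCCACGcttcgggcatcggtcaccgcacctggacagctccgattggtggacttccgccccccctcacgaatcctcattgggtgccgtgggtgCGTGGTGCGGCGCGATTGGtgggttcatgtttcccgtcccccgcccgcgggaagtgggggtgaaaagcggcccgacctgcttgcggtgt
XBP1 (chr22:28800570-28800819, - strand): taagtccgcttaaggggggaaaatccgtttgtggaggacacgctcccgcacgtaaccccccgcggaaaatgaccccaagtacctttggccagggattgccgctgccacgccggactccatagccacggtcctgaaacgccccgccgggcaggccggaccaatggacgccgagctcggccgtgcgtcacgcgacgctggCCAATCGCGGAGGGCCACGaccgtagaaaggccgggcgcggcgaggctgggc
CALR (chr19:12938359-12938608, + strand): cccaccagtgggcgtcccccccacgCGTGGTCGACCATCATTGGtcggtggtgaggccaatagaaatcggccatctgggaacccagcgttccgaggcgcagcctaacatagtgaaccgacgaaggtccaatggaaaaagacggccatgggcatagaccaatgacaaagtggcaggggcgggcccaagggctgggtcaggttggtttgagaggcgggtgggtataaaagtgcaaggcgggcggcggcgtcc
PDIA6 (chr2:10812786-10813035, - strand): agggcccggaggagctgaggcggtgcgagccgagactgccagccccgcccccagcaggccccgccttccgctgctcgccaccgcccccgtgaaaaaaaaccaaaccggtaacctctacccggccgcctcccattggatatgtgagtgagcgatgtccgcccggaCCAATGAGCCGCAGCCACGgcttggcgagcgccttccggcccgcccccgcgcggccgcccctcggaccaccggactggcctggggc

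RefSeq promoter windows, from 250 bases before to 50 after a start, were held for 29 of the 34 ER genes. They numbered 38, since some genes have several starts, and none was used here for PDIA3, DERL1, DERL3, STT3B and SEC24D. An ERSE was found in 8 of the 29 genes (27.6%), against 0.0916% of the 27305 genes with any window. An ERSE-II was found in 3 of them (10.3%), against 0.0696% of all genes. Either element was held by 11 of the 29 ER genes (37.9%) and by 0.161% of all genes, or by 34.2% of the ER windows and 0.131% of all 35116 windows. These 11 were HSPA5, HERPUD1, HSP90B1, XBP1, CALR and PDIA6, printed above, and HYOU1, ERO1B, SDF2L1, CANX and CRELD2. HSP90B1 held 2 ERSE matches and HYOU1 held 2 ERSE-II matches. The UPRE core (TGACGTGG), a site known for XBP1 binding, was found in 2 ER genes, HYOU1 and TXNDC5 (6.9% against 0.927% of all genes); the HYOU1 core overlapped an ERSE-II match. The ATF4 composite element (TGATGNAA) was found in HERPUD1 and CREB3L2 (6.9% against 4.46%). Both strands were searched for each motif. A match says only that the letters are there.

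**Figure D1:**
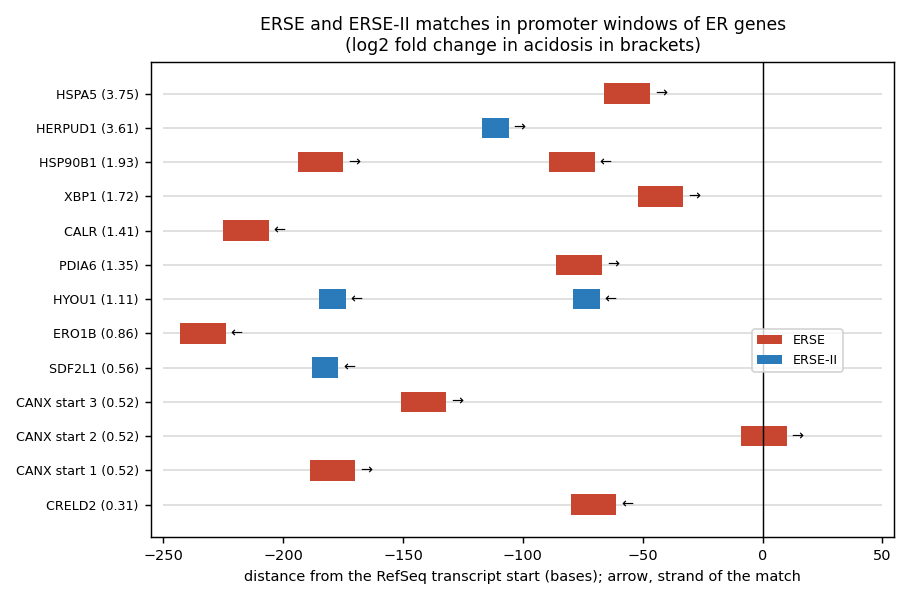
Position of each ERSE (red) and ERSE-II (blue) match within the RefSeq promoter windows of the 11 ER genes that hold one, in bases from the transcript start (0), with the strand of the match as an arrow and the log2 fold change in acidosis in brackets. CANX is drawn at the 3 of its starts whose window holds the match, which is a single site. HSP90B1 and HYOU1 each show 2 matches, and all matches but that at one CANX start lie wholly before the start.

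In acidosis the ER folding machinery was largely higher than in control. Of the 34 ER genes, 24 (70.6%) rose at a Benjamini-Hochberg adjusted p under 0.05 in edgeR's quasi-likelihood test, 4 (11.8%) fell and 6 did not pass. Among all genes tested, 32.5% rose and 34.2% fell at this limit. With an absolute log2 fold change over 1 asked as well, here termed called, 15 ER genes were higher and 0 lower, where all genes gave 14.4% higher and 19.1% lower. At an unadjusted p under 0.05 with the same fold limit 0 were lower too, and DESeq2 also gave 15 higher and 0 lower. The median log2 fold change of the ER genes was 0.67 and that of all genes −0.05. The summed level of the 34 genes was 6375 ± 124 CPM in control (SD, n = 2), 5519 ± 115 CPM with SRPIN340 (n = 2) and 20130 ± 468 CPM in acidosis (n = 3). As a share of the unscaled total count, which does not depend on TMM, the ER genes made up 0.7572% and 0.7429% at control, 0.6776% and 0.6574% under SRPIN340, and 1.551%, 1.607% and 1.612% under acidosis.

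Scaling by total count only left 15 ER genes higher and 9 lower, of which 6 and 1 were called, and a median of 0.09 against −0.63 for all genes. Under this scaling 16.2% of all genes rose and 55% fell, and 815 and 5202 of the 14863 were called. The distance of the ER median from that of all genes was 0.72 under both scalings. A change of scaling moves all genes by nearly the same amount, so this distance could hardly differ and cannot tell which scaling is right. The same 15 genes called higher with TMM were the ones that rose under total count scaling, and each of them passed under every one of the 14 alternative settings with a test, with a highest adjusted p of 0.000907. The genes with smaller rises did not: SDF2L1, CANX, SEC61A1, DERL1 and CRELD2 turned below 0 with total count scaling.

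**Figure D2:**
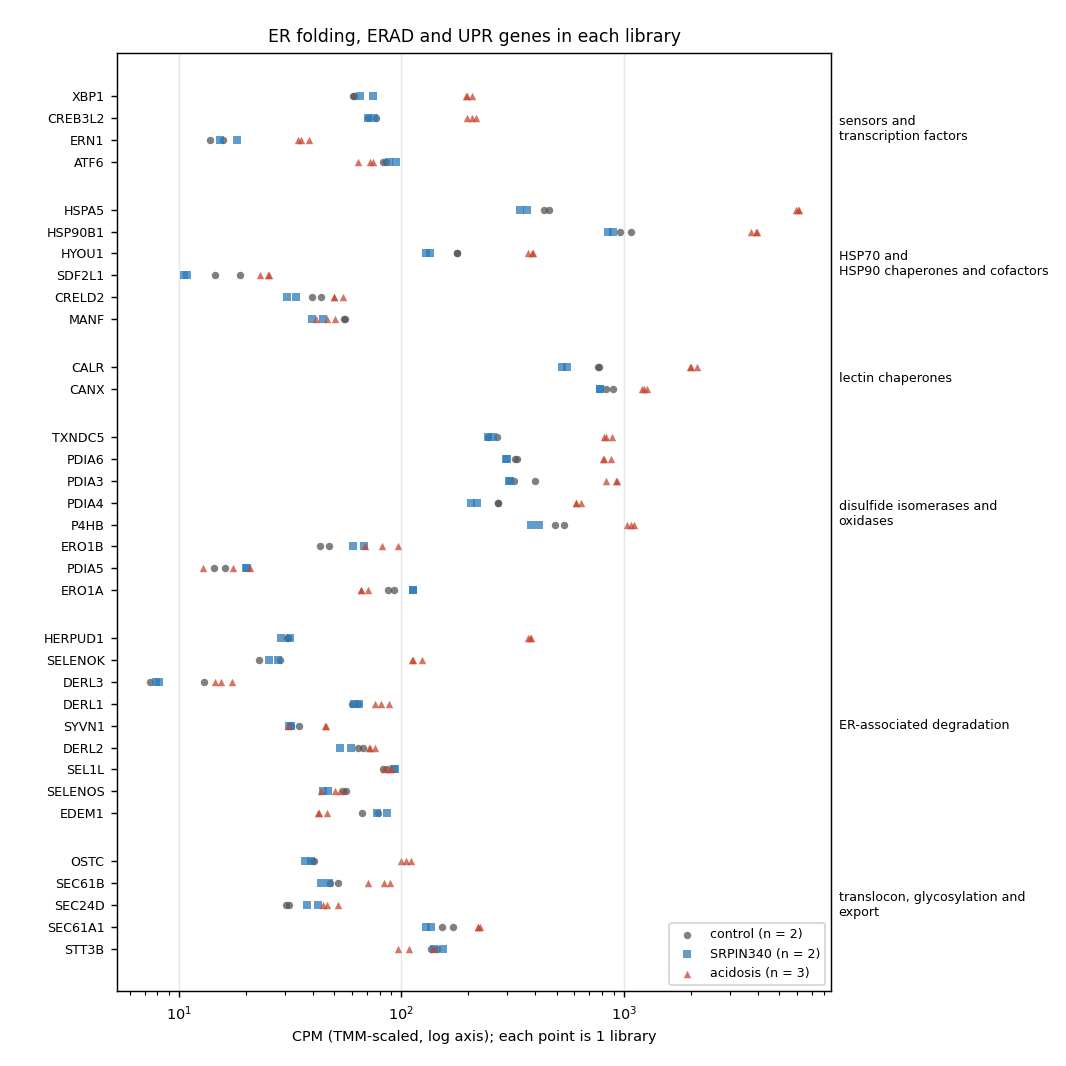
Level of each of the 34 ER genes in each sample, in CPM on a log axis, grouped by role; grey circles are control (n = 2), blue squares SRPIN340 (n = 2) and red triangles acidosis (n = 3), with 1 point per sample. The acidosis points of HSPA5 lie between 5935 and 6145 CPM against 438.2 and 462.8 CPM in control, while those of SEL1L lie among the other points.

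HSPA5 encodes BiP, the ER member of the HSP70 family, which binds unfolded chains and holds the sensors inactive (ENSG00000044574.9, GRCh38 chromosome 9, 125234853 to 125241382, − strand, 8 exons). It stood at 462.8 and 438.2 CPM in control, 365.9 and 340.5 CPM with SRPIN340, and 5935, 6145 and 6096 CPM in acidosis. The 3 acidosis samples lay far above the other 4, with no overlap. The rise was 13.5-fold (log2 fold change 3.75 ± 0.06 SE, adjusted p = 3.05e-10), the largest of the 34. HSPA5 alone made up 7.161% and 6.969% of the summed ER level in control, 6.533% and 6.262% with SRPIN340, and 30.16%, 30.59% and 29.57% in acidosis. Without HSPA5 the sum still rose from 6000 and 5849 CPM in control to 13740, 13940 and 14520 CPM in acidosis.

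HSP90B1 encodes GRP94, the ER member of the HSP90 family (ENSG00000166598.16, chromosome 12, 103930107 to 103953931, + strand). Its level was 1074 and 965 CPM in control, 899.5 and 851.6 CPM with SRPIN340, and 3731, 3968 and 3930 CPM in acidosis (3.80-fold, log2 fold change 1.93 ± 0.07 SE, adjusted p = 1.93e-08). HYOU1, a large HSP70-like protein that serves BiP as nucleotide exchange factor, was at 177.9 and 177.1 CPM in control, 135.2 and 128.8 CPM with SRPIN340, and 388.1, 371.2 and 391.1 CPM in acidosis (log2 fold change 1.11 ± 0.06 SE, adjusted p = 3.11e-07). In both genes every acidosis sample was above every other sample. The cofactor SDF2L1, which works with BiP and the J-domain protein ERdj3, was at 14.6 and 18.8 CPM in control, 10.5 and 10.9 CPM with SRPIN340, and 25.2, 23.2 and 25.4 CPM in acidosis. It rose by a log2 fold change of 0.56, but its value was −0.01 with total count scaling. CRELD2 had a log2 fold change of 0.31 and MANF, a secreted ER-stress-inducible protein, one of −0.28 (adjusted p = 0.0205 and 0.044). MANF did not pass with RLE size factors (adjusted p = 0.0688) or DESeq2 (adjusted p = 0.0759), and CRELD2 fell by 0.27 with total count scaling. Without control replicate 1 neither SDF2L1 nor CRELD2 passed (adjusted p = 0.072 and 0.147), and CRELD2 did not pass without acidosis replicate 1 (0.0565). CRELD2 overlaps ALG12 on the opposite strand and HSP90B1 overlaps UQCC6. Whether the counting used strand is not given in the sources used here, so reads of overlapping partners may not be told apart. Of these 6 chaperone genes, 5 rose and 1 fell, with 3 called higher.

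The lectin chaperones CALR and CANX bind monoglucosylated glycans on nascent glycoproteins. CALR, the soluble calreticulin (ENSG00000179218.15, chromosome 19, 12938578 to 12944489, + strand), was at 776.7 and 763 CPM in control, 553.6 and 528.4 CPM with SRPIN340, and 2006, 1982 and 2129 CPM in acidosis. Its rise was 2.65-fold (log2 fold change 1.41 ± 0.06 SE, adjusted p = 4.82e-08). CANX, the membrane-bound calnexin, was at 896.1 and 835.8 CPM in control, 779 and 783.6 CPM with SRPIN340, and 1208, 1239 and 1273 CPM in acidosis (1.43-fold, log2 fold change 0.52 ± 0.06 SE, adjusted p = 2.3e-05). CALR was thus called and CANX was not, and CANX was at −0.06 with total count scaling.

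Disulfide isomerases of the PDI family form and rearrange the disulfide bonds of client proteins, and the oxidases ERO1A and ERO1B reoxidize them. Of these 8 genes, 6 rose, 1 fell and 1 did not pass, and the 5 called were all isomerases. TXNDC5 was at 244.1 and 268.1 CPM in control, 257.1 and 244.7 CPM with SRPIN340, and 834.1, 814 and 881.9 CPM in acidosis (log2 fold change 1.72 ± 0.07 SE, adjusted p = 4.62e-08). PDIA6 was at 330 and 326 CPM in control, 296.6 and 297.2 CPM with SRPIN340, and 813.2, 808.3 and 881.1 CPM in acidosis (1.35 ± 0.06 SE, adjusted p = 9.65e-08). Both had acidosis samples clear of the other 4. PDIA3, the partner of the lectin chaperones, was at 400.9 and 322.4 CPM in control, 306.3 and 307.6 CPM with SRPIN340, and 830.6, 920.9 and 931 CPM in acidosis (1.31 ± 0.10 SE, adjusted p = 1.69e-06). PDIA4 was at 272.7 and 271.8 CPM in control, 219 and 205.5 CPM with SRPIN340, and 608, 608.3 and 645.1 CPM in acidosis (1.19 ± 0.06 SE, adjusted p = 2.11e-07). P4HB, the archetypal PDI and a subunit of prolyl 4-hydroxylase, was at 491.9 and 536.5 CPM in control, 413.9 and 381.5 CPM with SRPIN340, and 1081, 1034 and 1117 CPM in acidosis (1.07 ± 0.07 SE, adjusted p = 6.91e-07). The control samples of PDIA3 differed more from each other than those of the other isomerases named here. TXNDC5 overlaps the readthrough gene BLOC1S5-TXNDC5, PDIA6 overlaps ATP6V1C2 and PDIA3 overlaps ELL3.

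The 2 oxidases moved in opposite directions. ERO1B rose from 47.0 and 43.1 CPM in control to 68.4, 96.3 and 81.9 CPM in acidosis (log2 fold change 0.86 ± 0.14 SE, adjusted p = 0.000361). Its SRPIN340 samples, at 67.8 and 60.8 CPM, lay between them, and it did not pass with total count scaling. ERO1A, which is also known as a hypoxia-inducible gene, fell from 92.5 and 86.9 CPM to 65.8, 65.5 and 70.7 CPM (−0.41 ± 0.08 SE, adjusted p = 0.000929) and stood at 112.5 and 113.3 CPM with SRPIN340. PDIA5, at low level, was at 16.03 and 14.32 CPM in control and at 20.8, 12.8 and 17.4 CPM in acidosis, so that the groups overlapped (0.18 ± 0.19 SE, adjusted p = 0.431).

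Of the 4 sensors and transcription factors, 3 rose, all of them called, and ATF6 fell. XBP1 (ENSG00000100219.17, chromosome 22, 28794555 to 28800597, − strand) was at 61.4 and 60.4 CPM in control, 74.8 and 65.4 CPM with SRPIN340, and 198.3, 196 and 208.9 CPM in acidosis (3.30-fold, log2 fold change 1.72 ± 0.08 SE, adjusted p = 1.27e-07). CREB3L2, an ATF6-like factor of secretory cells that is released from the membrane by cleavage, was at 76.6 and 70.9 CPM in control, 75.6 and 70.6 CPM with SRPIN340, and 207.3, 197 and 217.4 CPM in acidosis (1.49 ± 0.08 SE, adjusted p = 2.48e-07). ERN1 was at 13.8 and 15.8 CPM in control, 15.3 and 18.1 CPM with SRPIN340, and 35.3, 34.2 and 38.4 CPM in acidosis (1.28 ± 0.13 SE, adjusted p = 1.88e-05). In all 3 genes the acidosis samples were above every other sample. ATF6 was at 83.0 and 85.7 CPM in control, 94.2 and 88.2 CPM with SRPIN340, and 74.6, 63.6 and 72.5 CPM in acidosis, below the other samples (−0.26 ± 0.09 SE, adjusted p = 0.0265). The mRNAs of the kinase sensor and of ATF6 therefore changed in opposite directions.

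The 9 ERAD genes were the most divided group. HERPUD1, SELENOK, DERL3 and DERL1 rose, EDEM1 fell, and SYVN1, DERL2, SEL1L and SELENOS did not pass. HERPUD1, a membrane adaptor of the HRD1 ubiquitin ligase complex (ENSG00000051108.15, chromosome 16, 56932142 to 56944864, + strand), was at 30.5 and 31.0 CPM in control, 31.6 and 28.7 CPM with SRPIN340, and 370.3, 381.8 and 378.1 CPM in acidosis. This was a 12.2-fold rise (log2 fold change 3.61 ± 0.08 SE, adjusted p = 1.5e-09), close to that of HSPA5. SELENOK, a selenoprotein that binds derlins, was at 23.0 and 28.5 CPM in control, 25.4 and 27.8 CPM with SRPIN340, and 124.3, 111.4 and 112.6 CPM in acidosis (4.51-fold, 2.17 ± 0.12 SE, adjusted p = 2.72e-07). These 2 genes were called, and their acidosis samples were above all others. SEL1L, the adaptor that stabilizes HRD1, was at 86.2 and 82.6 CPM in control, 92.6 and 93.3 CPM with SRPIN340, and 83.8, 89.4 and 89.0 CPM in acidosis (0.05 ± 0.07 SE, 95% interval −0.12 to 0.22, adjusted p = 0.573). SYVN1, which encodes HRD1 itself, was at 31.8 and 34.7 CPM in control and 45.9, 30.9 and 45.1 CPM in acidosis, with acidosis replicate 2 below both controls (0.30 ± 0.16 SE, adjusted p = 0.129). Without acidosis replicate 2, SYVN1 passed as higher (0.46, adjusted p = 0.00342), so its result hung on that sample. EDEM1, a mannosidase-like lectin that marks glycoproteins for disposal, fell from 66.2 and 78.6 CPM in control to 42.5, 46.3 and 42.4 CPM in acidosis (−0.73 ± 0.10 SE, adjusted p = 0.000147). It was at 77.8 and 86.1 CPM with SRPIN340. DERL1, DERL2 and DERL3 encode derlins of the retrotranslocation channel, with log2 fold changes of 0.41, 0.16 and 0.64, and DERL3 was low, between 7.385 and 17.28 CPM. The rise of DERL3 (adjusted p = 0.0309) did not pass without control replicate 1 (adjusted p = 0.25), without acidosis replicate 1 (0.0806), without SRPIN340 replicate 1 or 2 (0.0508 and 0.0505) or with total count scaling (0.828).

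Of the 5 genes for entry, glycosylation and exit, 4 rose and STT3B did not pass. OSTC, a subunit of the oligosaccharyltransferase that acts during translocation, was at 40.6 and 39.6 CPM in control, 37.0 and 39.2 CPM with SRPIN340, and 104.7, 99.9 and 110.7 CPM in acidosis (2.62-fold, log2 fold change 1.39 ± 0.09 SE, adjusted p = 6.4e-07). It was the only one of the 5 called. STT3B, the catalytic subunit of the other form of the enzyme, was at 135.3 and 145.4 CPM in control and 108.2, 96.1 and 138.9 CPM in acidosis, with overlap (−0.30 ± 0.13 SE, adjusted p = 0.074). It passed as lower without acidosis replicate 3 (adjusted p = 0.00262), with a replicate block (0.00593), with every gene with a count tested (0.048), with a filter at a mean of 10 CPM (0.0213) and with total count scaling (0.000175). The translocon channel genes SEC61B and SEC61A1 rose by 0.70 and 0.46 and the COPII coat gene SEC24D by 0.62 on the log2 scale. SEC24D was also the gene of this group with its SRPIN340 samples above control, at 42.0 and 37.7 CPM against 30.4 and 31.4 CPM (adjusted p = 0.134).

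The 4 genes that fell in acidosis were thus EDEM1, ERO1A, MANF and ATF6, with folds between 0.60 and 0.83. EDEM1 and ERO1A fell with each sample left out in turn. ATF6 and MANF both missed the limit without control replicate 1 (adjusted p = 0.065 and 0.128), without control replicate 2 (0.0983 and 0.104) or without acidosis replicate 2 (0.0655 and 0.0616), each of which left 2 genes lower. MANF also missed the limit without acidosis replicate 1 (adjusted p = 0.124) and without either SRPIN340 replicate (log2 fold change −0.28 in each). With total count scaling 9 genes fell, which added STT3B, SELENOS, SEL1L, DERL2 and CRELD2.

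**Figure D3:**
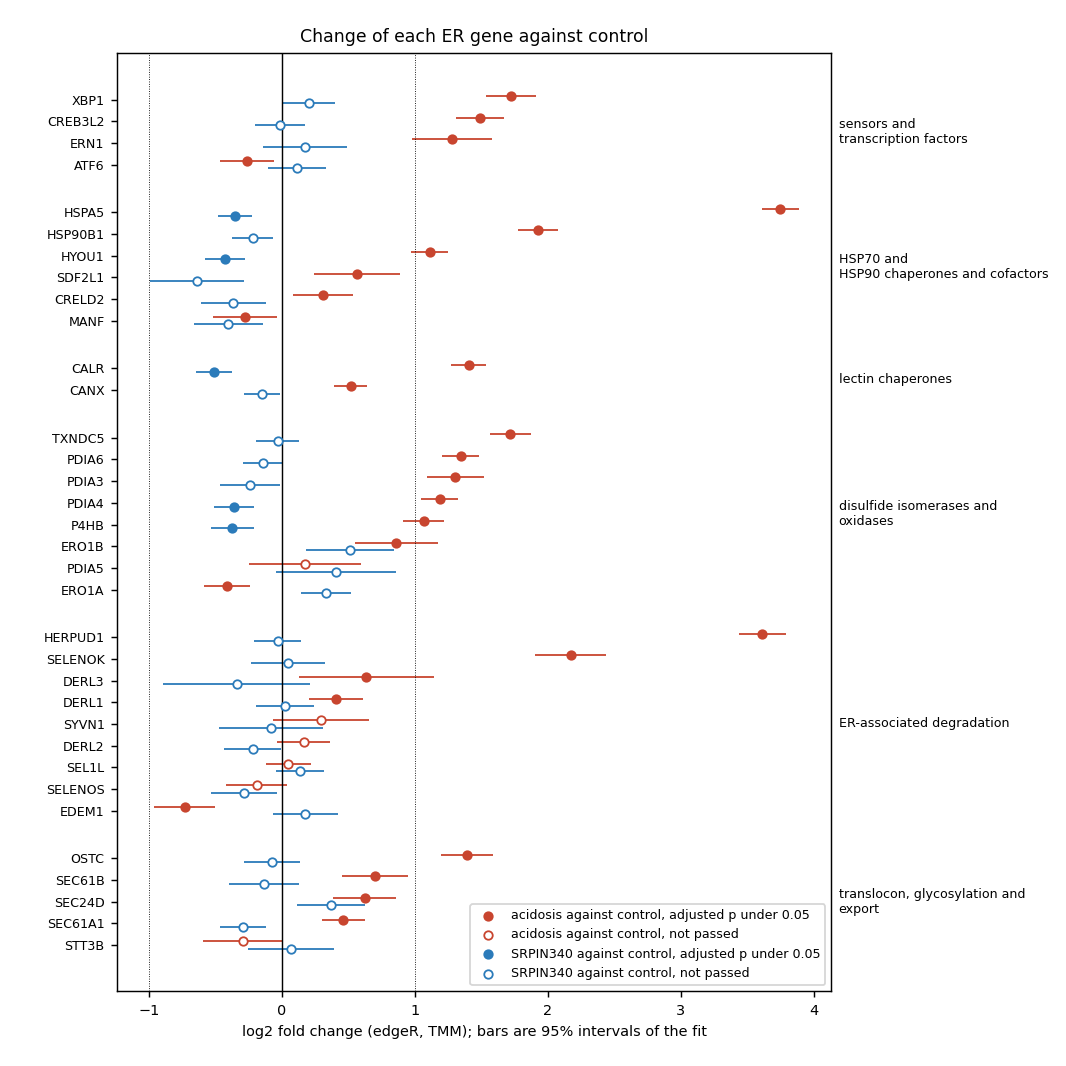
Log2 fold change of each ER gene against control in acidosis (red) and with SRPIN340 (blue), from edgeR with TMM scaling; bars are 95% intervals of the fit, filled circles passed at an adjusted p under 0.05, and dotted lines mark a log2 fold change of 1 in either direction. In acidosis 15 genes lie beyond 1 on the right and none beyond it on the left, while with SRPIN340 the 5 filled circles all lie on the left within −0.51.

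**Figure D4:**
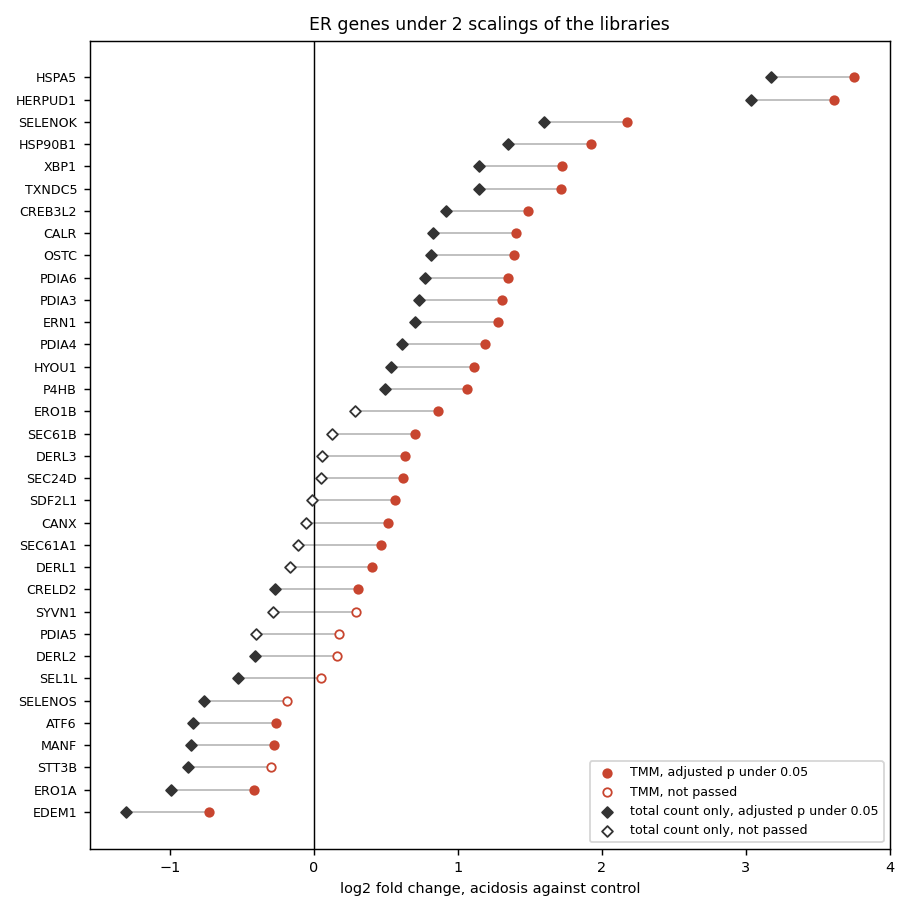
Log2 fold change of each ER gene in acidosis against control with TMM scaling (red circles) and with total count scaling (black diamonds), joined per gene; filled symbols passed at an adjusted p under 0.05. Every gene shifts left by a like amount, the 15 genes at the top stay above 0 and filled, and SDF2L1, CANX, SEC61A1, DERL1, CRELD2, SYVN1, PDIA5, DERL2 and SEL1L cross 0.

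To compare levels between genes, CPM was divided by the length in kb of each gene's canonical transcript. In control, CALR was highest at 404.9 CPM per kb (samples 401.4 to 408.6), followed by HSP90B1 at 366.6, P4HB at 211, CANX at 176.2, PDIA6 at 143.9 and HSPA5 at 114.9. The ranges of these 6 genes over the control samples did not overlap. In acidosis, HSPA5 was highest at 1545 CPM per kb (1514 to 1567), then HSP90B1 at 1394 (1341 to 1426), CALR at 1073 (1043 to 1120), P4HB at 441.9, PDIA6 at 366 and TXNDC5 at 287.1, again without overlap between neighbours. HSPA5 thus went from the sixth place to the first. CANX and PDIA3, which followed at 252.3 and 243 CPM per kb, overlapped in their samples. With SRPIN340, HSP90B1 at 314.7 (306.1 to 323.3) stood above CALR at 284.6 (277.9 to 291.2), the reverse of their order in control. In control the sensors and ERAD genes were all below the 6 genes named for it, the highest being SELENOS at 45.57 CPM per kb and XBP1 at 34.01. ERN1 was lowest at 1.877 CPM per kb, DERL3 was at 3.282, HERPUD1 at 10.8, SEL1L at 10.7 and ATF6 at 11.3. Some folding genes were as low, such as PDIA5 at 8.232 and ERO1B at 9.031. In acidosis HERPUD1 reached 132 CPM per kb, within the range of SEC61B (126 to 157), the small translocon subunit.

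The 11 ER genes with an ERSE or ERSE-II in their promoter window all rose in acidosis, with log2 fold changes between 0.31 and 3.75 and a median of 1.35. Of the 18 ER genes with a window and no match, 9 rose, 4 fell and 5 did not pass, with a median of 0.38. Both sets held 7 called genes, and in the set with no match these included SELENOK at 2.17 and TXNDC5 at 1.72. With total count scaling the genes with a match had a median of 0.77, with 7 higher and CRELD2 lower, and those without had a median of −0.20, with 7 higher and 7 lower. Across all tested genes with a window, 20 of the 31 with a match (64.5%) rose and 8 fell. Of the 11790 without a match, 3923 (33.3%) rose and 4098 fell. The 31 include the 11 ER genes, which all rose, so the share of 64.5% rests in good part on them and says little about other genes. ALG12, which had the lowest value of the 31 at −2.58, starts beside CRELD2 in the opposite direction. These shares are a description, since the elements were first defined in promoters of ER chaperone genes.

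The surrounding pathway was followed in a wider list of 178 genes that did not include the 34, of which 175 were tested (SEC16B, ERN2 and CREB3L3 were too low). Here 103 rose (58.9%), 44 fell (25.1%) and 28 did not pass in acidosis, where 32.5% of all genes rose and 34.2% fell. Of the list 38 were called higher and 18 lower, where all genes gave 14.4% and 19.1%. The median log2 fold change was 0.46. The same shares of all genes are the background for each list below. With total count scaling 55 rose and 78 fell, 9 and 40 of them called. Its median was then −0.12, against −0.63 for all genes, of which 16.2% rose and 55% fell under that scaling.

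In the PERK branch, of 9 genes 7 rose, 1 fell and 1 did not pass. PPP1R15A (GADD34), the stress-induced subunit that directs phosphatase to eIF2α, was at 47.7 and 43.3 CPM in control, 51.4 and 46.7 CPM with SRPIN340, and 2146, 2137 and 2176 CPM in acidosis (log2 fold change 5.57 ± 0.08 SE, adjusted p = 2.48e-10). Its constitutive counterpart PPP1R15B rose by 2.47, the transcription factor ATF4 by 2.08 and the kinase EIF2AK3 by 1.73 on the log2 scale. ATF4 was at 328.9 and 387.4 CPM in control and at 1511, 1471 and 1572 CPM in acidosis. DDIT3 (CHOP), a target of ATF4 linked to cell death, rose from 14.8 and 15.3 CPM to 23.2, 21.7 and 21.6 CPM (0.56 ± 0.12 SE, adjusted p = 0.00231), but was at −0.02 with total count scaling. TRIB3, a known target of ATF4 and CHOP, fell from 25.6 and 32.0 CPM to 9.205, 12.2 and 8.083 CPM (−1.56 ± 0.17 SE, adjusted p = 3.01e-05). The upper genes of the branch and TRIB3 therefore moved apart, also with total count scaling, where ATF4 was at 1.51 and TRIB3 at −2.13.

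Of 36 further folding enzymes and co-chaperones, 25 rose, 6 fell and 5 did not pass, with a median log2 fold change of 0.76. The called genes with the largest rises were DNAJB9, a J-domain partner of BiP that also represses IRE1α, at 2.12, HSPA13 at 1.73 and TXNDC12 at 1.39. DNAJB9 was at 17.7 and 15.4 CPM in control and 68.3, 76.4 and 71.6 CPM in acidosis. CNPY2, at −1.33, was the called gene of this group that fell. With total count scaling 17 rose and 11 fell.

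Of 37 further ERAD genes, 18 rose, 10 fell and 9 did not pass, with a median of 0.19. The ubiquitin ligases RNF139 and RNF185 rose by 1.55 and 1.24 on the log2 scale. VCP, the ATPase that pulls substrates from the membrane, fell from 438 and 451.9 CPM to 175.8, 172.7 and 133.6 CPM (−1.47 ± 0.10 SE, adjusted p = 1.39e-06), and the cytosolic deglycosylase NGLY1 and HERPUD2, the paralog of HERPUD1, fell by 1.41 and 1.18. The 2 HERPUD genes thus changed in opposite directions, both also with total count scaling.

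Of 33 further N-glycosylation genes, 16 rose (48.5%) and 10 fell (30.3%), against 32.5% and 34.2% of all genes, so falls were no more frequent than among all genes. The called rises with the largest values were in DPM3 (1.56), OST4 (1.47) and DDOST (1.43), of which OST4 and DDOST are oligosaccharyltransferase subunits like OSTC. The largest called falls were in ALG12 (−2.58), DOLK (−2.10) and ALG6 (−2.05), which act earlier, in building the lipid-linked glycan. Of 23 translocon and signal peptidase genes, 16 rose and 5 fell, led by SRPRA (1.57), SSR3 (1.42) and SRP14 (1.21), with SRP54 at −1.03. Of 25 COPII export genes tested, 18 rose and 4 fell, led by the cargo carriers TMED10 (1.79), LMAN1 (1.71) and LMAN2 (1.29), with PREB at −1.59 and SEC23B at −1.22. With total count scaling the glycosylation list had 11 higher and 17 lower, the translocon list 6 and 9, and the export list 8 and 9.

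Among 12 tested genes of sensors and their processing, 3 rose, 8 fell and 1 did not pass, with a median of −0.66. TMBIM6, an ER membrane protein that restrains IRE1α, rose by 1.74 from 621.2 and 616.8 CPM to 2000, 2034 and 2179 CPM. CREB3, CREB3L4 and CREB3L1, membrane-bound relatives of CREB3L2, fell by 2.14, 1.97 and 1.69. CREB3L1 was low, between 0.5938 and 0.8598 CPM in acidosis and 2.269 and 2.598 CPM in control. CREB3L2 was thus the member of this family that was called higher while these 3 were called lower, and with total count scaling CREB3L2 was at 0.92.

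**Figure D5:**
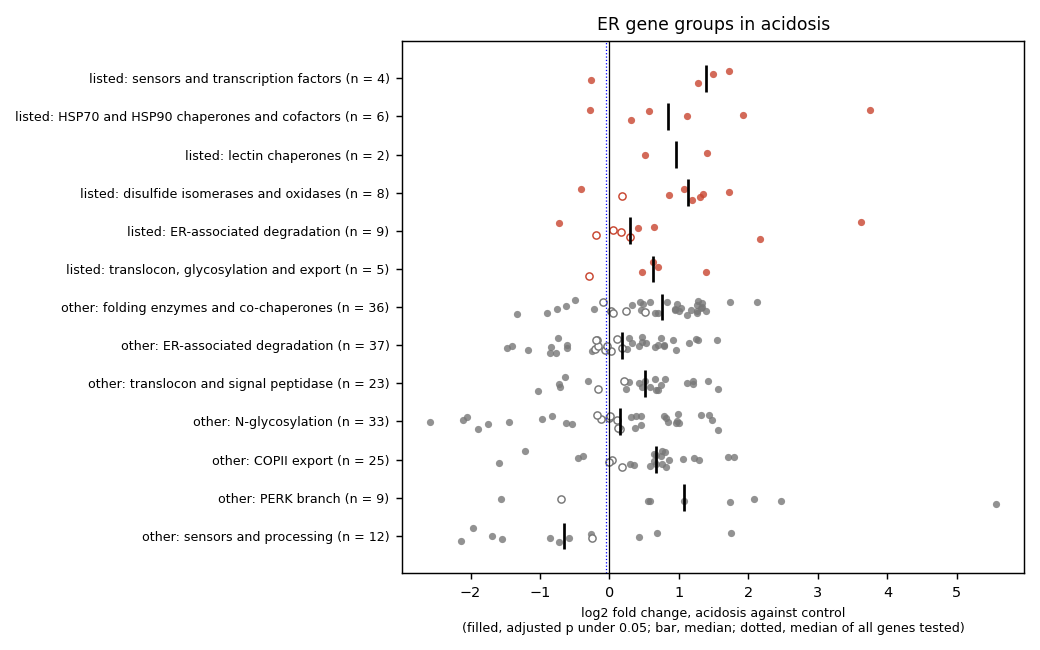
Log2 fold change in acidosis against control of the 34 ER genes by role (red) and of the 175 other ER pathway genes by list (grey); each point is a gene, filled at an adjusted p under 0.05, the black bar is the median of the list and the dotted line the median of all genes tested. Points are spread vertically only so that they can be seen; PPP1R15A lies alone at 5.57 and the sensors and processing list is the one with its median below 0.

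SRPIN340 moved few ER genes, and by little. None of the 34 rose at an adjusted p under 0.05, against 0.767% of all genes, and 5 (14.7%) fell, against 1.53%. None was called, against 0.323% of all genes in either direction. At an unadjusted p under 0.05, 4 were higher and 14 lower, where 1212 and 1409 of the 14863 genes tested were. CALR fell by 0.51 in log2 units (SE 0.06, adjusted p = 0.0056), HYOU1 by 0.43 (SE 0.07, adjusted p = 0.0181), P4HB by 0.37 (SE 0.07, adjusted p = 0.037), PDIA4 by 0.36 (SE 0.07, adjusted p = 0.0323) and HSPA5 by 0.35 (SE 0.06, adjusted p = 0.0227). In each of the 5 both SRPIN340 samples were below both controls. All 5 are among the genes called higher in acidosis, and both comparisons use the same control samples. The median log2 fold change of the ER genes was −0.11, that of all genes 0.00. These calls rested on few samples: leaving out either SRPIN340 replicate left 0, leaving out either control replicate left CALR alone, and DESeq2 gave 9 lower and 2 higher. Among all genes DESeq2 gave 3.79% lower and 2.15% higher. The 2 ER genes higher with DESeq2 were ERO1A (0.32, adjusted p = 0.0206) and ERO1B (0.51, adjusted p = 0.0279). The 4 it added below were SEC61A1, SDF2L1, MANF and CRELD2. SDF2L1 had the lowest value of the 34, −0.64 (95% interval −0.99 to −0.29), and did not pass in edgeR (adjusted p = 0.0712).

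Acidosis was also set against SRPIN340 directly. Here 24 ER genes were higher and 4 lower, against 32.8% and 35% of all genes. Of the ER genes 16 were called higher and 0 lower, where 2213 and 2935 of the 14863 genes tested were. The median was 0.91 for the ER genes and −0.05 for all genes. SDF2L1 was the added called gene (log2 fold change 1.204 ± 0.149 SE, adjusted p = 5.99e-05). HSPA5 differed 17.2-fold (4.10 ± 0.06 SE, adjusted p = 2.53e-10) and CALR 3.77-fold (1.91 ± 0.06 SE, adjusted p = 1.25e-08). The 4 lower genes were EDEM1, ERO1A, ATF6 and STT3B, so MANF, which fell against control, was 0.13 higher than with SRPIN340 and did not pass (adjusted p = 0.326). MANF was at 55.7 and 55.5 CPM in control, 39.7 and 44.5 CPM with SRPIN340 and 41.3, 46.4 and 50.3 CPM in acidosis, so that both treatments lay below control and overlapped each other.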

How the data were processed

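Poly(A) RNA of 7 HEK-293 samples was sequenced as paired-end reads. The authors trimmed the reads with Trimmomatic 0.39 and Trim Galore 0.6.6, quantified transcripts with Salmon 1.5.1 against the GENCODE GRCh38 transcriptome, and used tximport to sum transcripts into genes. What they deposited are estimated counts without normalization, and the tximport option is not given in the sources used here. Of 19978 identifiers, 19977 were matched to a symbol.

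After rounding to whole numbers, the counts entered the quasi-likelihood test of edgeR 4.0.16 under R 4.3.3, with filterByExpr, TMM scaling and a single fit of all 7 samples in which group was the only term. P-values were adjusted by Benjamini-Hochberg over the 14863 genes tested; passing was an adjusted p under 0.05, and called also an absolute log2 fold change over 1. DESeq2 1.42.0 was an alternative, with RLE size factors, total count only, other filters, only the 2 groups compared, a replicate block and each sample left out in turn. The tests were checked on simulated counts. Intervals are 95%.

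The ER genes and the gene lists were chosen with earlier results of these data known. All 34 genes were accounted for. Values in every sample were given for called genes and 11 preset ones, and for some others chosen after their values were seen; of each other list, up to 3 called genes per direction with the largest change were named, beside EIF2AK3, ATF4, DDIT3 and DNAJB9. A gene that this rule names is not reported here. Transcript lengths and positions came from GENCODE release 44 and promoters from RefSeq. Replicates differed by more than sampling noise in every pair. HSP90B1 and PDIA3 have near-identical pseudogenes, so their counts are uncertain where reads are shared. The ends of the proteins were not analysed here.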

Additional observations from a re-analysis of the deposited data

How the results depend on the processing

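The limits are the 2 samples of control and of SRPIN340 and the scaling, since total count only shifted the acidosis values of all genes by nearly the same amount. With total count only, 15 ER genes were higher and 9 lower in acidosis, 6 and 1 of them called, with a median log2 fold change of 0.093; the other ER pathway genes gave 55 higher and 78 lower, 9 and 40 called. Against SRPIN340 it gave 16 higher and 11 lower, where 15.8% of all genes were higher and 56.9% lower. The median there was 0.29, against −0.67 for all genes. Of the ER genes 6 were called higher and 2 called lower there, and the share of all genes called was not counted. With SRPIN340 against control, total count only gave 1 higher, against 1.08% of all genes. Values that turned below 0 in acidosis with it were SDF2L1 −0.011, CRELD2 −0.27, CANX −0.056, PDIA5 −0.40, SEL1L −0.52, SYVN1 −0.28, DERL1 −0.17, DERL2 −0.41, SEC61A1 −0.11 and DDIT3 −0.018. SEL1L was also at −0.036 with a filter at a mean of 10 CPM and between −0.00028 and 0.082 with 1 sample left out in turn. The filter at 10 CPM gave medians of 0.58 against control and 0.81 against SRPIN340, where 1 gene was called lower; the cause was not tested. With a lower fold limit 1 ER gene was called lower in acidosis, and 74 other ER pathway genes higher and 36 lower. The share of all genes at that limit was not counted, so these counts cannot be set against it.

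With SRPIN340 against control, DESeq2 gave 2 higher and 9 lower, against 2.15% and 3.79% of all genes. A fit of only the 2 groups gave 1 higher (1.62% of all genes) and a replicate block 1 lower (0.256% of all genes). The cause was not tested. Deviations of samples with the same replicate number correlated between −0.115 and 0.063. In a group of 2 samples the deviations mirror each other, so these values cannot decide whether equal numbers mark a pair. The block gave 24 higher and 5 lower in acidosis, 15 called. Leaving out 1 sample in turn gave 21 to 25 higher and 2 to 5 lower in acidosis, 14 to 16 called and medians from 0.61 to 0.76. Against SRPIN340 it gave 22 to 25 higher, 3 to 4 lower, 15 to 17 called and medians from 0.86 to 0.96. With SRPIN340 against control it gave 0 to 1 higher, 0 to 5 lower and medians from −0.12 to −0.07. For the other ER pathway genes in acidosis against control it gave 92 to 105 higher and 40 to 44 lower, 37 to 39 and 17 to 20 called.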

Other observations

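Among the 175 other ER pathway genes tested, 5 passed with SRPIN340 at an adjusted p under 0.05 in edgeR (2.86%, near the 2.3% of all genes tested), and their names were chosen after their values were seen. SSR3, a subunit of the translocon-associated TRAP complex, rose from 71.3 and 70.4 CPM in control to 89.8 and 95.5 CPM (log2 fold change 0.39 ± 0.08 SE, adjusted p = 0.037). PPIB, the ER cyclophilin, fell from 208.7 and 204.9 CPM to 161.7 and 157.5 CPM (−0.37 ± 0.07 SE, adjusted p = 0.0318). UFD1, a cofactor of VCP, fell from 140 and 138.4 CPM to 88.4 and 92.2 CPM (−0.62 ± 0.09 SE, adjusted p = 0.0153). MPDU1, which is needed for the use of dolichol-linked mannose, had a log2 fold change of −0.53 and BAX, the apoptosis effector that also acts at the ER, one of −0.63 (adjusted p = 0.0396 and 0.0205). In acidosis SSR3 and PPIB rose by 1.42 and 1.31, MPDU1 rose by 0.38, BAX fell by 0.27 and UFD1 did not pass (0.19, adjusted p = 0.0812). The comparisons share their control samples.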
